A study of Mus musculus with 36 samples.

Results

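Matricellular proteins are secreted proteins that lie in the extracellular matrix and act on cells through integrins, syndecans and growth factors, and contribute little to the load-bearing scaffold. In the adult heart most of them are scarce and are made again after injury or under load, largely by fibroblasts, where they loosen cell adhesion, shape collagen fibrils and present or activate TGF-beta. Of 9 genes listed for this family, the annotation table named 8: Tnc, Cthrc1, Postn, Sparc, Thbs1, Thbs4, Thbs2 and Ccn2. Spp1 (osteopontin) was not named there and was not analysed here. The 8 genes have 14 probe sets on the array, each gene was read from the one that was brightest by its mean over all 36 arrays, and all 8 passed the filter on low values among the 12626 genes tested.

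The series measured RNA in the left ventricle of mice on a C57black background by Affymetrix mouse expression arrays, each hybridised with 1 RNA sample. HRas-v12, MKK3bE and MKK7D are activated forms of Ras, of a kinase upstream of p38 and of a kinase upstream of JNK, and each floxed transgene is driven by the alpha myosin heavy chain promoter of heart muscle cells. The double transgenic mice also carry Mer-Cre-Mer, a tamoxifen-activated Cre recombinase under the same promoter. All mice, the non-transgenic littermate controls included, received tamoxifen at 20 mg/kg daily over 3 days from 12 weeks of age. Hearts were taken at a late point, 2 to 4 weeks after the first dose, or at an early point, 4 to 7 days after it. The late HRas-v12 group had 3 male and 3 female arrays and the early HRas-v12 group 3 male and 2 female arrays. The late MKK3bE group had 3 male and 2 female arrays and the early MKK3bE group 2 female arrays. A shared set of 3 male and 3 female controls, with no time point in the labels, served these lines. MKK7D had 3 female arrays at the late point with 3 female late controls, and 3 female arrays at the early point with 3 female early controls. By their labels the controls carry neither allele, so effects of the transgene and of Mer-Cre-Mer with tamoxifen cannot be told apart. The Esr1 signal of 2 controls was at the level of transgenic arrays, and that of some other controls lay between these levels.

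The labels were checked against marker genes on the arrays. Esr1 was read as a mark of the driver, since Mer is a mutated estrogen receptor domain and its RNA may reach that probe set, and it had a signal of 294 to 832 in 5 shared controls and of 7943 in the sixth. The early HRas-v12 female replicate 3 read 688, the late HRas-v12 male replicate 1 read 2915 and the late HRas-v12 male replicate 3 read 1327, all under 7943 and the last 2 above the other 5 controls. The early HRas-v12 males, which were not put in doubt, read 12437 to 21172, and the other transgenic arrays 33382 to 155949. Late MKK7D controls 8 and 9 read 106402 and 91291, at the level of the late MKK7D transgenic arrays, which read 109949, 88303 and 105983. Late control 10 read 953, and early MKK7D controls 1, 2 and 3 read 7288, 3506 and 294. Transgenic arrays at or under 7943 and MKK7D controls above it were put in doubt, so this set depends on 1 shared control. Early controls 1 and 2 and late control 10 lay under this limit but above the other 5 shared controls. The early MKK7D control 1, labelled female, had an Eif2s3y signal of 6018, a gene of the Y chromosome that read 5 and 12 in the other two early controls. The 6 arrays whose driver or sex readout went against the label in this way are called the arrays in doubt. Results that rest on them are given with and without them. Map2k3, the gene of the kinase behind MKK3bE, differed by 0.10 and 0.14 on the log2 scale in late and early MKK3bE hearts (limma adjusted p = 0.687 and 0.703), so its probe set did not mark the transgenic arrays, and Hras and Map2k7 were not analysed here. The summed signal of 9 cardiac muscle markers was 833745 to 1640993 per array and that of 6 skeletal muscle markers 688 to 1922.

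**Figure D1:**
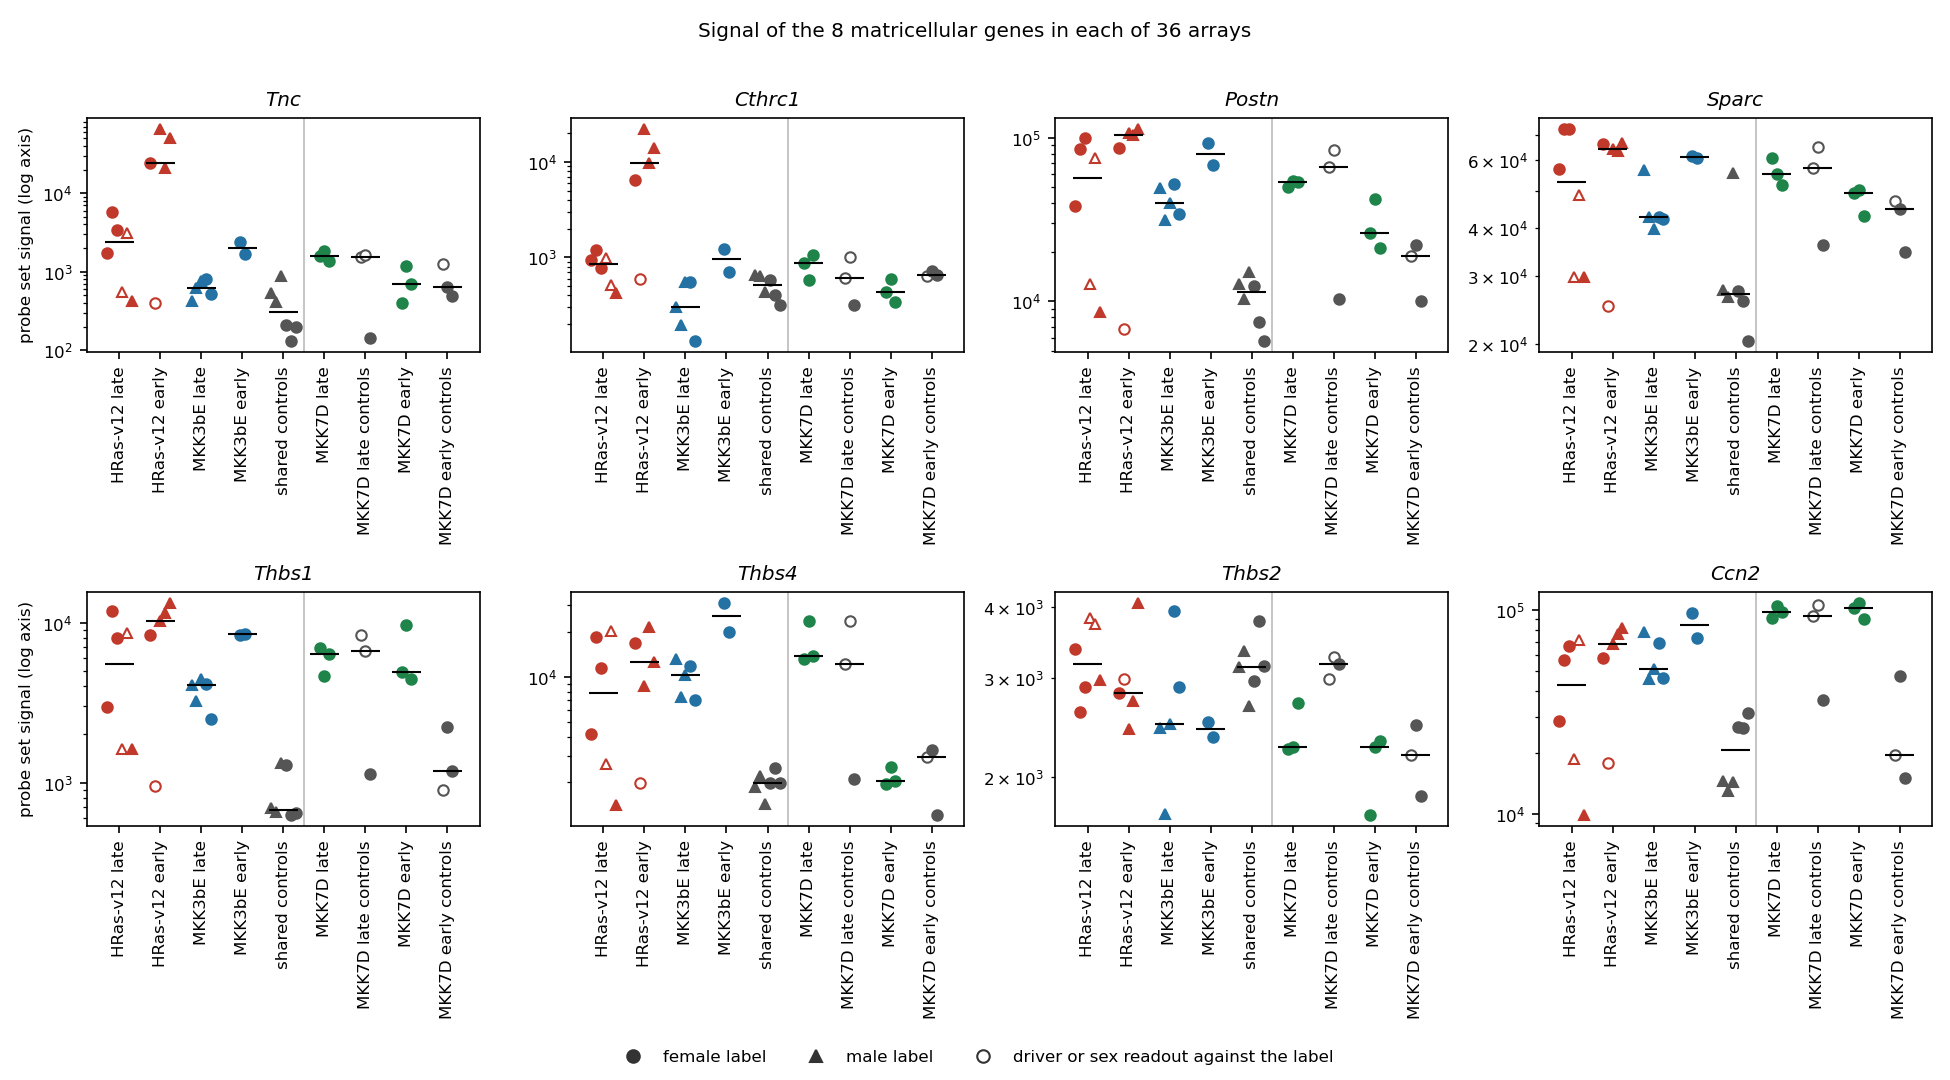
Signal of each of the 8 genes in each of the 36 arrays, on a log axis that differs between panels. Circles carry a female label and triangles a male label, open symbols are the arrays in doubt, black bars are group medians, and the grey line parts the lines that use the shared controls from the MKK7D line. Tnc and Cthrc1 stand highest in 4 of the 5 early HRas-v12 arrays, and Thbs2 keeps 1 narrow band in every group.

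The genes differed in how far their signal moved over the series. The highest array had 505 times the signal of the lowest for Tnc, 166 times for Cthrc1, 25.6 times for Thbs4, 21.2 times for Thbs1, 19.9 times for Postn, 11.0 times for Ccn2, 3.57 times for Sparc and 2.38 times for Thbs2. By the SD of log2(signal + 32) over the 36 arrays, Thbs2 stood at percentile 40.4 of the genes tested and Sparc at percentile 75.2, and the other 6 genes at 97.9 or above. Ordered by group median, Tnc, Cthrc1, Postn, Sparc and Thbs1 were highest in early HRas-v12 hearts and Thbs2 in late HRas-v12 hearts. Ccn2 was highest in early MKK7D hearts and Thbs4 in early MKK3bE hearts. The lowest medians were those of the shared controls for Tnc, Postn, Sparc, Thbs1 and Thbs4. They were those of the early MKK7D controls for Ccn2 and Thbs2 and of late MKK3bE hearts for Cthrc1. Among the 9 groups the ranges of neighbours in this order overlapped in all 8 pairs for Tnc, Cthrc1, Postn, Sparc, Thbs4 and Ccn2, in 6 of 8 for Thbs1 and in 7 of 8 for Thbs2, and the order of groups that overlap is within their spread. Levels are not set against each other between genes, because each probe set has its own brightness. The left ventricle was measured as bulk tissue, in which fewer cells of a type and less RNA per cell cannot be told apart.

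Late HRas-v12 hearts had 4 of the 8 genes called higher than in the shared controls and none lower (limma adjusted p under 0.05), where 4.86% of all genes tested were called higher, and 4.66% fell. Thbs1 rose 5.08-fold, Tnc 4.92-fold, Postn 3.71-fold and Sparc 1.68-fold. All 4 calls ended in a fit of only the groups compared (adjusted p = 0.0991 to 0.12), in which 0 of all genes were called. Thbs4 was 3.21-fold higher with an adjusted p of 0.0509, and Ccn2, Cthrc1 and Thbs2 did not pass the test (limma adjusted p = 0.153, 0.337 and 0.931). Thbs1 was the only member with every late HRas-v12 array above every shared control, which held for 0.554% of all genes. The calls of Tnc, Postn and Sparc ended without the male replicate 3 (adjusted p = 0.119, 0.107 and 0.0877) or without the female replicate 3 (adjusted p = 0.0872, 0.0721 and 0.0656). Without the 6 arrays in doubt male replicate 4 is the 1 late male, and the call of Sparc ended. The changes were then 3.85-fold for Thbs1, 3.44-fold for Tnc, 2.42-fold for Postn and 1.54-fold for Sparc.

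Early HRas-v12 hearts had 7 of the 8 genes called higher than in the shared controls and none lower, where 15.1% of all genes tested were called higher, and 18.7% fell. Their changes ran from 1.78-fold for Sparc to 32.4-fold for Tnc, and Thbs2 changed by -0.10 ± 0.14 in log2 units (SE, adjusted p = 0.626). The median change was 2.24 on the log2 scale over the 8 genes and -0.04 over all genes. Without the 6 arrays in doubt female replicate 1 is the 1 early female, and Tnc then reached 88.8-fold and Cthrc1 18.4-fold. Without the female replicate 1, which leaves the array in doubt as the 1 early female, the calls of Thbs4, Postn, Sparc and Ccn2 ended. Their changes were then 1.38, 1.43, 0.48 and 0.89 in log2 units, and those of Tnc, Cthrc1 and Thbs1 were 3.56, 2.51 and 1.98. The share of all genes called in that fit is not given here. No member had every early array above or every early array below all shared controls, which held for 1.51% and 2.76% of all genes. Without the arrays in doubt, that is without the early female replicate 3, the 4 early arrays lay above all 6 shared controls for the 7 genes other than Thbs2, which held for 13.2% of all genes, and below them for none, which held for 15.6%.

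In late MKK3bE hearts Thbs4, Thbs1, Postn and Ccn2 were called higher than in the shared controls, 4 of the 8 genes, and none lower, where 5.06% of all genes were called higher, and 5.39% fell. These 4 genes were also those with every late MKK3bE array above every shared control, which held for 4.39% of all genes, and no member had every array below, which held for 5.69%. In early MKK3bE hearts, with 2 female arrays, Thbs4, Thbs1, Postn and Sparc were called higher than in the shared control females, 4 of the 8 genes, and none lower, where 3.48% of all genes were called higher, and 2.78% fell. All members but Thbs2 had both early MKK3bE arrays above the 3 control females, which held for 19.9% of all genes, and Thbs2 had both below, which held for 22.6%. The median change over the 8 genes was 1.19 on the log2 scale late and 2.43 early, against -0.01 and -0.02 over all genes. Without the female late replicate 2 all 4 late calls ended (adjusted p = 0.07 to 0.0885), and without either early array all 4 early calls ended (adjusted p = 0.0776 to 0.142).

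In MKK7D hearts none of the 8 genes was called at either point. Late, 0 genes were called (limma, with 643 genes at an unadjusted p under 0.05 and 50 called with array weights). Early, 0.0871% of all genes were called higher, and 0.0475% fell (limma, with 1346 genes at an unadjusted p under 0.05). Thbs1 and Ccn2 had every early MKK7D array above every early control, which held for 11.3% of all genes, and Cthrc1 had every array below, which held for 12.1%. Without the arrays in doubt, which removes early control 1, Ccn2 was 3.75-fold higher (adjusted p = 0.00608) and Thbs1 3.61-fold higher (adjusted p = 0.0429) in early MKK7D hearts, where 0.642% of all genes were called higher.

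**Figure D2:**
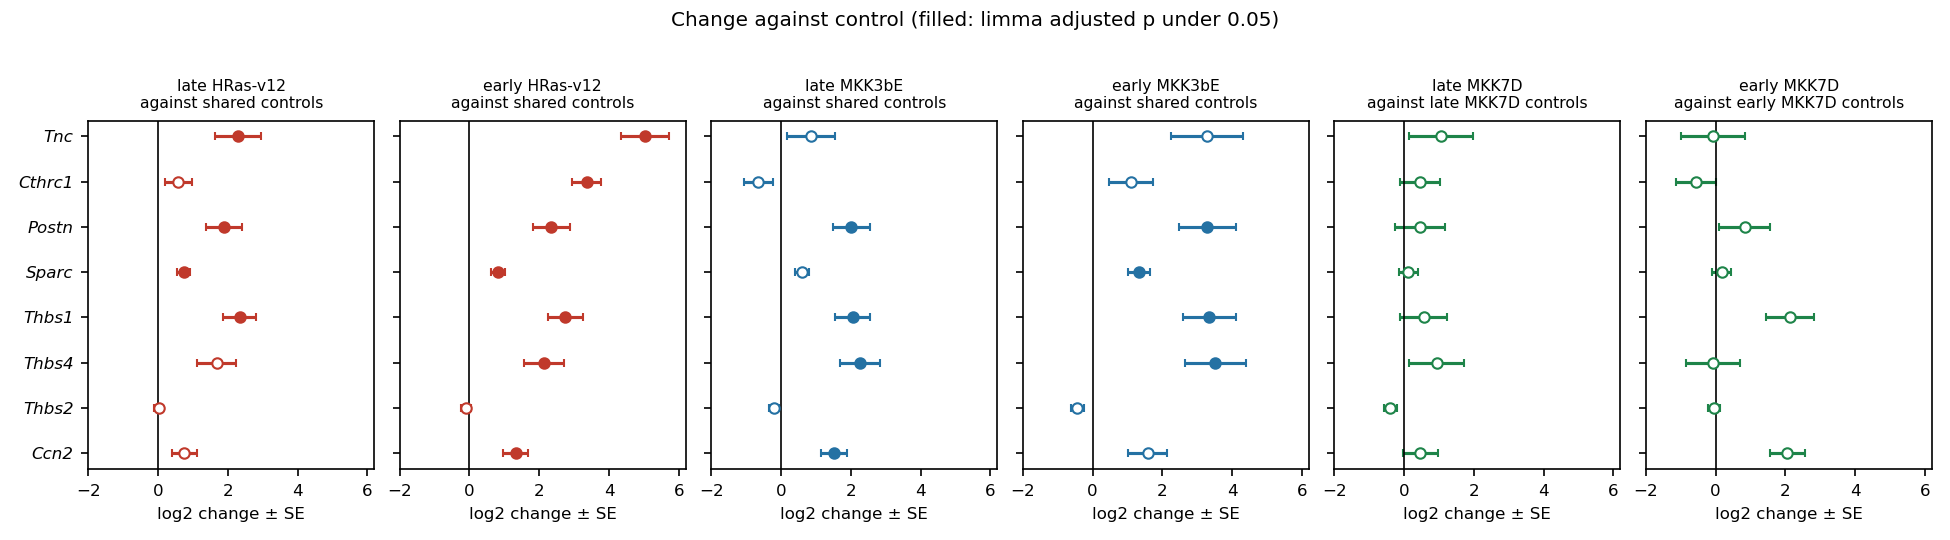
Change of each gene in log2(signal + 32) with its standard error, transgenic minus control, in 6 comparisons. Filled symbols passed the test at a limma adjusted p under 0.05. Tnc has the highest value in the early HRas-v12 panel (5.02), and Thbs2 lies between -0.43 and 0.02 in every panel.

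The promoters are shown for a pair of thrombospondins that behaved differently and for 2 genes that moved with HRas-v12. RefSeq promoter windows, 250 bases before to 50 after a start site on GRCm38.p6, were held for 5 of the 8 genes, in 7 windows, and those of Thbs1, Ccn2 and Cthrc1 were not used here. The 4 windows printed are those of Thbs4 and Thbs2, of Tnc and of Postn. Capitals mark matches, on either strand, to CAGACA, a SMAD motif, or to GGAATG, a TEAD motif (read as TGTCTG and CATTCC on the other strand). Tnc, 1 of 2 windows, chr4:64046887-64047186, minus strand, and Postn, 1 of 2 windows, chr3:54360857-54361156, plus strand, are followed by Thbs4, chr13:92794769-92795068, minus strand, and Thbs2, chr17:14694213-14694512, minus strand.
Tnc: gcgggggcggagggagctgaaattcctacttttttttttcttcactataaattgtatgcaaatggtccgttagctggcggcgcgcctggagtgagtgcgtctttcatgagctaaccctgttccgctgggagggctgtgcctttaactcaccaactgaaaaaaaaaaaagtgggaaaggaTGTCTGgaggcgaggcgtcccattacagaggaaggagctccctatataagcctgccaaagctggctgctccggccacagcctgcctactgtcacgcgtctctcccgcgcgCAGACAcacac
Postn: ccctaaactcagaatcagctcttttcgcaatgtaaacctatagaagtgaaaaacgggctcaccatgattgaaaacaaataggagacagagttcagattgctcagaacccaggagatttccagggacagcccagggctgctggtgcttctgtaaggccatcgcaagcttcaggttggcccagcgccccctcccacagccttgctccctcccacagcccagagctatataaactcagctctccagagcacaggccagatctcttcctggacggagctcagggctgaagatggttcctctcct
Thbs4: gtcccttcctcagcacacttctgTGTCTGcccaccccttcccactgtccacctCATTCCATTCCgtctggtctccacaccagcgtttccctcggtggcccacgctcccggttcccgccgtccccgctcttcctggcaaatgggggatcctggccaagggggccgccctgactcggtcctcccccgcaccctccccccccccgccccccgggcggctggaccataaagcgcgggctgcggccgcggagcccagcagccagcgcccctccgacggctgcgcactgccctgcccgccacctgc
Thbs2: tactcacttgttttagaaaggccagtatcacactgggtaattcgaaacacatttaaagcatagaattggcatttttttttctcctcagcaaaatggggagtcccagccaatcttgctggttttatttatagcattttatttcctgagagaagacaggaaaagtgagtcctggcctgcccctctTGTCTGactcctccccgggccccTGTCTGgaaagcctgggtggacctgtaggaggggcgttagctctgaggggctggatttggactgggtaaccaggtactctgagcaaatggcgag
The SMAD motif was in the windows of 4 of the 5 genes, Tnc, Sparc, Thbs4 and Thbs2, against 21.0% of 32851 windows of the same length. It thus lay in Thbs2, which was called in no comparison with controls, as well as in Tnc and Thbs4. The TEAD motif lay in the Thbs4 window alone, at 2 overlapping places that begin at -197 and -192 from the start site, against 14.7% of all windows. The AP-1 motif TGANTCA, the ETS motif CCGGAA and the CArG box of serum response factor were in none of the 7 windows, against 7.81%, 14.9% and 1.63% of all windows. These are letters in a window and not shown sites of binding.

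Tnc encodes tenascin C, a hexameric glycoprotein that lowers the adhesion of cells to fibronectin and is scarce in normal adult muscle. Its gene lies on chromosome 4, bases 63959785 to 64047015 on GRCm38.p6. In hearts of late HRas-v12 mice Tnc had signals of 554, 3069 and 429 in males and of 1722, 5782 and 3382 in females. In early HRas-v12 hearts it had 65879, 21079 and 51129 in males and 24118 and 396 in females. The shared controls had 543, 411 and 871 in males and 207, 130 and 197 in females. Among the late arrays 2 of 3 males overlapped the male controls and all females lay above every shared control. Of the early arrays 4 of 5 had 21079 or more. The early array in doubt, female replicate 3, lay above the female controls but within the range of all shared controls. The change was 2.30 ± 0.65 late and 5.02 ± 0.69 early in log2 units (SE, adjusted p = 0.0293 and 2.19e-05).

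Late HRas-v12 hearts thus had less Tnc than early ones, by 6.58-fold (log2 change -2.72 ± 0.69, adjusted p = 0.0123). This call ended without the early female replicate 1 (-1.26) and in a fit of only the groups compared (adjusted p = 0.185). The difference was 25.8-fold without the 6 arrays in doubt. In that fit the late males are male replicate 4 alone (Tnc 429) and the early females female replicate 1 alone (Tnc 24118). In MKK3bE hearts Tnc had 428, 624 and 760 in late males, 800 and 514 in late females and 2360 and 1673 in early females. The late males overlapped the male controls, and both early arrays lay above every control. The late females lay above the female controls and within the range of the male ones. The change was 0.86 ± 0.69 late (adjusted p = 0.453) and 3.29 ± 1.03 early (adjusted p = 0.0525), so that the early difference of 9.75-fold did not pass the test. It passed with a pseudocount of 1, with the upper 40% of probe sets, after quantile normalization, with array weights and in a fit of only the groups compared (adjusted p = 0.00172 to 0.0479). In early MKK7D hearts Tnc had 400, 1174 and 705 against 1236, 635 and 492 in early controls, which overlapped. Its other probe set was dim and did not pass the filter, and it changed by 0.99 in late and by 2.65 in early HRas-v12 hearts.

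Cthrc1 encodes collagen triple helix repeat containing 1, a secreted glycoprotein made by activated fibroblasts and known from injured arteries. It lies on chromosome 15, bases 39076932 to 39087121. Late HRas-v12 arrays had 984, 512 and 421 in males and 945, 1191 and 778 in females. Early HRas-v12 arrays had 21991, 9673 and 13922 in males and 6383 and 590 in females. The shared controls had 320 to 658, with a median of 510, so that the late females lay above all of them while the late males overlapped them, and 4 early arrays lay above every other array of the series. The change was 0.59 ± 0.40 late (adjusted p = 0.337) and 3.36 ± 0.42 early (10.2-fold, adjusted p = 9.96e-06).

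Late HRas-v12 hearts had 6.79-fold less Cthrc1 than early ones (log2 change -2.76 ± 0.42, limma adjusted p = 0.00019), a call that ended in a fit of only the groups compared (adjusted p = 0.0621). Tnc and Cthrc1 were the 2 of 8 genes called lower late against early, where 4.67% of all genes were called lower. The other 6 genes had changes of -0.56 to 0.12 in that comparison, with adjusted p of 0.36 to 0.833. Without the 6 arrays in doubt 7 of the 8 genes were called lower late than early, where 11.8% of all genes were called lower, with Thbs2 the exception at 0.02. In that fit the late males are male replicate 4 alone and the early females female replicate 1 alone, each assumed to vary like the other groups. In MKK3bE hearts Cthrc1 had 195 to 559 in late males, 133 and 554 in late females and 1229 and 705 in early females, and neither change passed the test (-0.65 ± 0.42 late, adjusted p = 0.343, and 1.09 ± 0.63 early, adjusted p = 0.308). Early MKK7D arrays had 345 to 598, below early controls with 646 to 726, a change of -0.55 ± 0.57 (adjusted p = 0.771).

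**Figure D3:**
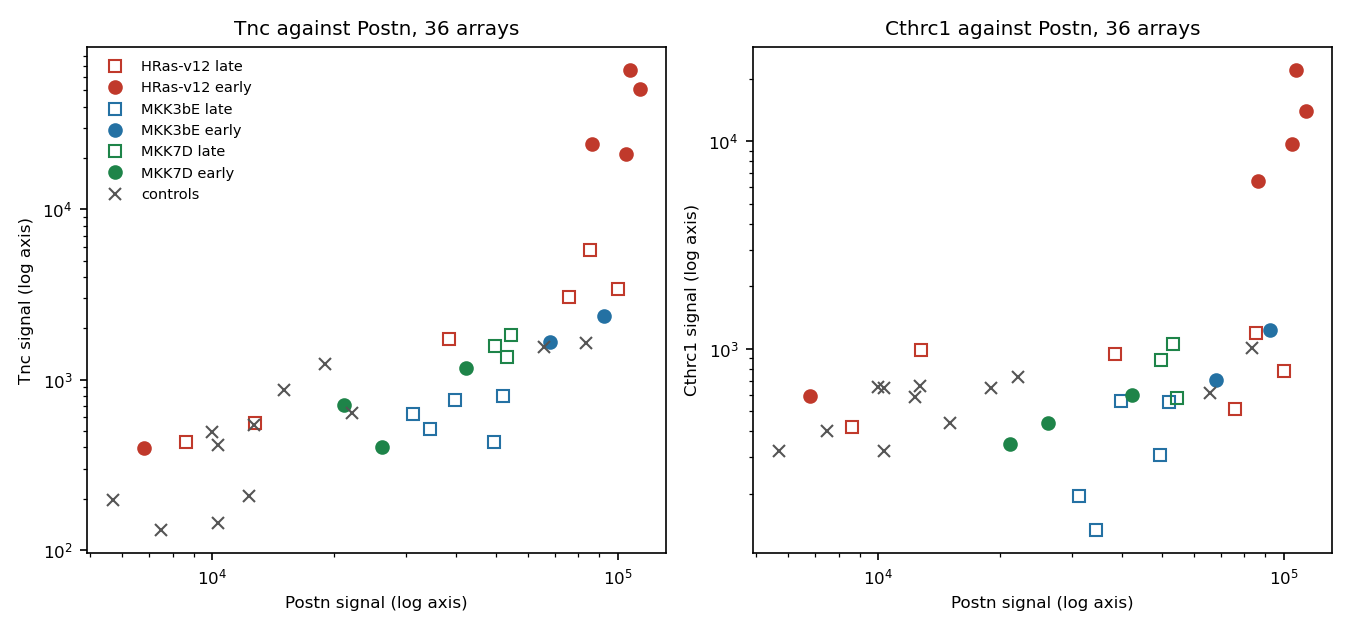
Tnc signal (left) and Cthrc1 signal (right) against Postn signal in each of the 36 arrays, all axes log. Open squares are late and filled circles early transgenic arrays, coloured by line, and crosses are all controls. The 4 early HRas-v12 arrays with Tnc of 21079 or more and Cthrc1 of 6383 or more have Postn of 86332 to 113376, a range that also holds late HRas-v12 female replicate 4 (Postn 100108, Tnc 3382) and early MKK3bE female replicate 1 (Postn 92584, Tnc 2360).

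Postn encodes periostin, a fibroblast product that helps collagen fibrils cross-link and is a mark of activated cardiac fibroblasts. The Postn gene is on chromosome 3, bases 54359267 to 54391041. In hearts of late HRas-v12 mice Postn had 12749, 75840 and 8600 in males and 38341, 85370 and 100108 in females. In early HRas-v12 hearts it had 107361, 104927 and 113376 in males and 86332 and 6796 in females. The shared controls had 5706 to 15048, with a median of 11347, which left 2 of 6 late and 1 of 5 early arrays within the control range. The change was 1.89 ± 0.51 late (3.71-fold, adjusted p = 0.0258) and 2.35 ± 0.54 early (5.08-fold, adjusted p = 0.00175).

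In MKK3bE hearts Postn had 49555, 31329 and 39795 in late males, 52183 and 34484 in late females and 92584 and 67970 in early females. All 7 arrays lay above all 6 shared controls, and the early arrays above the late ones. The change was 2.02 ± 0.54 late (4.06-fold, adjusted p = 0.0174) and 3.29 ± 0.81 early (9.79-fold, adjusted p = 0.015), and the late minus early difference in females did not pass the test (-0.90 ± 0.88, adjusted p = 0.98). In MKK7D hearts Postn had 49854, 54511 and 53423 late and 26238, 42254 and 21139 early. Late controls 8 and 9 had 65971 and 83768 and late control 10 had 10322, and the early controls had 18972, 22120 and 10003. The early groups overlapped, with a change of 0.83 ± 0.72 (adjusted p = 0.724).

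Sparc encodes SPARC (osteonectin), a collagen-binding protein that takes part in the processing of procollagen. The Sparc gene is on chromosome 11, bases 55394159 to 55420080. Its signal was 29748 to 72358 in late HRas-v12 hearts (median 52782), 25068 to 66568 in early HRas-v12 hearts (median 64273) and 20282 to 55488 in the shared controls (median 26959). Control male replicate 5, with 55488, stood apart from the other 5 controls, the next of which had 27496. The change was 0.74 ± 0.19 late (adjusted p = 0.022) and 0.83 ± 0.20 early (adjusted p = 0.00295). In MKK3bE hearts Sparc had 39728 to 56494 late and 60649 and 61454 early, a change of 0.61 ± 0.20 late (adjusted p = 0.0541, and 0.78 with adjusted p = 0.0134 without control male replicate 5) and of 1.33 ± 0.31 early (adjusted p = 0.0108).

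The 3 Sparc probe sets did not all move alike. The next brightest changed by 0.80 in late and 1.04 in early HRas-v12 hearts, close to the brightest, with which it correlated at r = 0.91 over the 36 arrays. The dimmest changed by -0.48 and -0.06 and correlated at r = -0.23. With the mean of all 3 probe sets the calls of Sparc ended in late HRas-v12 hearts (0.35, adjusted p = 0.181) and in early MKK3bE hearts (0.70, adjusted p = 0.13).

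Thbs1 encodes thrombospondin 1, a trimer stored in platelets and made by many cells, which activates latent TGF-beta and restrains vessel growth through CD36 and CD47. It lies on chromosome 2, bases 118111876 to 118127133. Late HRas-v12 hearts had 1615, 8650 and 1618 in males and 2981, 11890 and 8031 in females. In early HRas-v12 hearts it had 10245, 11450 and 13304 in males and 8412 and 949 in females. The shared controls had 628 to 1333, with a median of 672, so that every late array lay above every control, 2 males by a small margin. The change was 2.34 ± 0.48 late (5.08-fold, adjusted p = 0.0129) and 2.75 ± 0.51 early (6.74-fold, adjusted p = 0.000293).

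In MKK3bE hearts Thbs1 had 4047, 3216 and 4466 in late males, 4146 and 2492 in late females and 8419 and 8500 in early females. All 7 arrays lay above every shared control, and the change was 2.05 ± 0.51 late (4.15-fold, adjusted p = 0.0113) and 3.34 ± 0.76 early (10.1-fold, adjusted p = 0.0104). In early MKK7D hearts Thbs1 had 4940, 9720 and 4441 against 895, 2240 and 1185 in early controls. These groups did not overlap, and the change of 2.13 ± 0.68 (4.39-fold) did not pass the test over all genes (adjusted p = 0.197), while it passed with array weights and in a fit of these groups alone (adjusted p = 0.00319 and 0.0149). Its other probe set followed it at r = 0.97 and changed by 1.70 in late and 2.10 in early HRas-v12 hearts.

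Thbs4 encodes thrombospondin 4, a pentamer of tendon, muscle and loaded heart that also acts inside the cell in the stress response of the endoplasmic reticulum. The Thbs4 gene is on chromosome 13, bases 92751586 to 92794818. In MKK3bE hearts it had 13227, 7312 and 10248 in late males, 11915 and 7051 in late females and 31104 and 19947 in early females. The shared controls had 1432 to 2497, with a median of 1974, and no MKK3bE array came near them. The change was 2.27 ± 0.58 late (4.81-fold, adjusted p = 0.0138) and 3.52 ± 0.87 early (11.5-fold, adjusted p = 0.016), and 31104 was the highest Thbs4 signal of the 36 arrays.

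In hearts of late HRas-v12 mice Thbs4 had 2641, 20118 and 1406 in males and 4182, 18309 and 11452 in females, and in early HRas-v12 hearts 8670, 21354 and 12571 in males and 16772 and 1995 in females. The late male replicate 4 lay just below the control range and the early female replicate 3 within it. The change was 1.68 ± 0.55 late (adjusted p = 0.0509) and 2.14 ± 0.58 early (4.42-fold, adjusted p = 0.0061). In MKK7D hearts Thbs4 had 13121, 23394 and 13801 late and 1952, 2537 and 2051 early, and the early controls had 2939, 3272 and 1216. Early MKK7D arrays lay within the range of their controls (-0.07 ± 0.78, adjusted p = 0.987), while every late MKK7D array lay above every early one, a difference of 7.38-fold between the transgenic arrays alone that did not pass the test (2.88 ± 0.78, adjusted p = 0.519). The summed signal of 6 tendon and cartilage markers was 8666 to 11135 in late and 2172 to 4322 in early MKK7D arrays, and its part in this difference was not tested.

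Thbs2 encodes thrombospondin 2, a trimer close to thrombospondin 1 in its domains that lacks its TGF-beta activating sequence. It lies on chromosome 17, bases 14665500 to 14694262. Its signal was 2607 to 3820 in late and 2432 to 4072 in early HRas-v12 hearts, 1720 to 3936 in late MKK3bE hearts, 2501 and 2358 in early MKK3bE hearts and 2675 to 3780 in the shared controls. No change against controls passed the test, the values being 0.02, -0.10, -0.21 and -0.43 in that order with SE of 0.13 to 0.20. Its other probe sets changed by 0.31 and -0.39 in late HRas-v12 hearts, by -0.03 and 0.01 in early HRas-v12 hearts and by -0.44 and -0.66 in early MKK3bE hearts, and they correlated with the brightest at r = 0.77 and 0.22.

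Ccn2 encodes connective tissue growth factor, a CCN family protein induced by TGF-beta, stretch and YAP with TEAD. The Ccn2 gene is on chromosome 10, bases 24595442 to 24598683. Late HRas-v12 hearts had 18572, 71097 and 9896 in males and 28739, 56996 and 66423 in females, and early HRas-v12 hearts 68492, 76170 and 81892 in males and 58367 and 17846 in females. The shared controls had 14518, 13009 and 14308 in males and 26670, 26543 and 31199 in females, and so split by sex. The change, taken within each sex, was 0.76 ± 0.35 late (adjusted p = 0.153) and 1.32 ± 0.37 early (2.49-fold, adjusted p = 0.00816).

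In MKK3bE hearts Ccn2 had 78314, 46060 and 51255 in late males, 69176 and 46223 in late females and 97029 and 72685 in early females, all above every shared control. The change was 1.52 ± 0.37 late (2.87-fold, adjusted p = 0.0103) and 1.58 ± 0.56 early (adjusted p = 0.0862). In early MKK7D hearts Ccn2 had 102139, 108703 and 90766 against 19535, 47296 and 15062 in early controls, which did not overlap. Of these, 108703 was the highest Ccn2 signal of the 36 arrays. The change of 2.06 ± 0.50 (4.16-fold) had an adjusted p of 0.0669, and it passed without early control 2 (2.54, adjusted p = 0.0169), with array weights (2.18, adjusted p = 0.000196) and in a fit of these groups alone (adjusted p = 0.0141). Early MKK7D hearts thus had high Ccn2 and Thbs1 with Tnc, Thbs4 and Cthrc1 within or below the range of their controls.

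The late MKK7D comparison turned on its controls. The late MKK7D arrays averaged 11.0 times the Tnc, 7.92 times the Thbs4, 5.1 times the Postn and 5.28 times the Thbs1 of late control 10. Late controls 8 and 9, whose Esr1 signal was that of transgenic arrays, averaged 11.0 times the Tnc, 8.39 times the Thbs4, 7.25 times the Postn and 6.59 times the Thbs1 of the same control. The late MKK7D signals were 1353 to 1837 for Tnc, 4662 to 6960 for Thbs1, 51815 to 60729 for Sparc, 91625 to 104940 for Ccn2 and 578 to 1047 for Cthrc1. The late controls had 144 to 1643 for Tnc, 1134 to 8304 for Thbs1, 36160 to 64973 for Sparc, 36112 to 105775 for Ccn2 and 321 to 1002 for Cthrc1, so these groups overlapped. Thbs2 alone did not, with 2240 to 2701 in late MKK7D arrays below 2980 to 3266 in late controls, which held for 5.53% of all genes (6.98% had every array above). Against all 3 controls the changes were -0.39 to 1.05 with adjusted p of 0.977 to 0.999. With late control 10 alone, assumed to vary like the other groups, Tnc (9.12-fold, adjusted p = 0.00442), Thbs4 (7.54-fold, adjusted p = 0.00809), Postn (5.08-fold, adjusted p = 0.00674) and Thbs1 (5.09-fold, adjusted p = 0.0203) were called higher, where 2.22% of all genes were called higher. Against the early MKK7D controls, another time point, 1 of the 8 genes was called higher in late MKK7D hearts, Ccn2 (4.06-fold, adjusted p = 0.0354), where 1.16% of all genes were called higher.

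**Figure D4:**
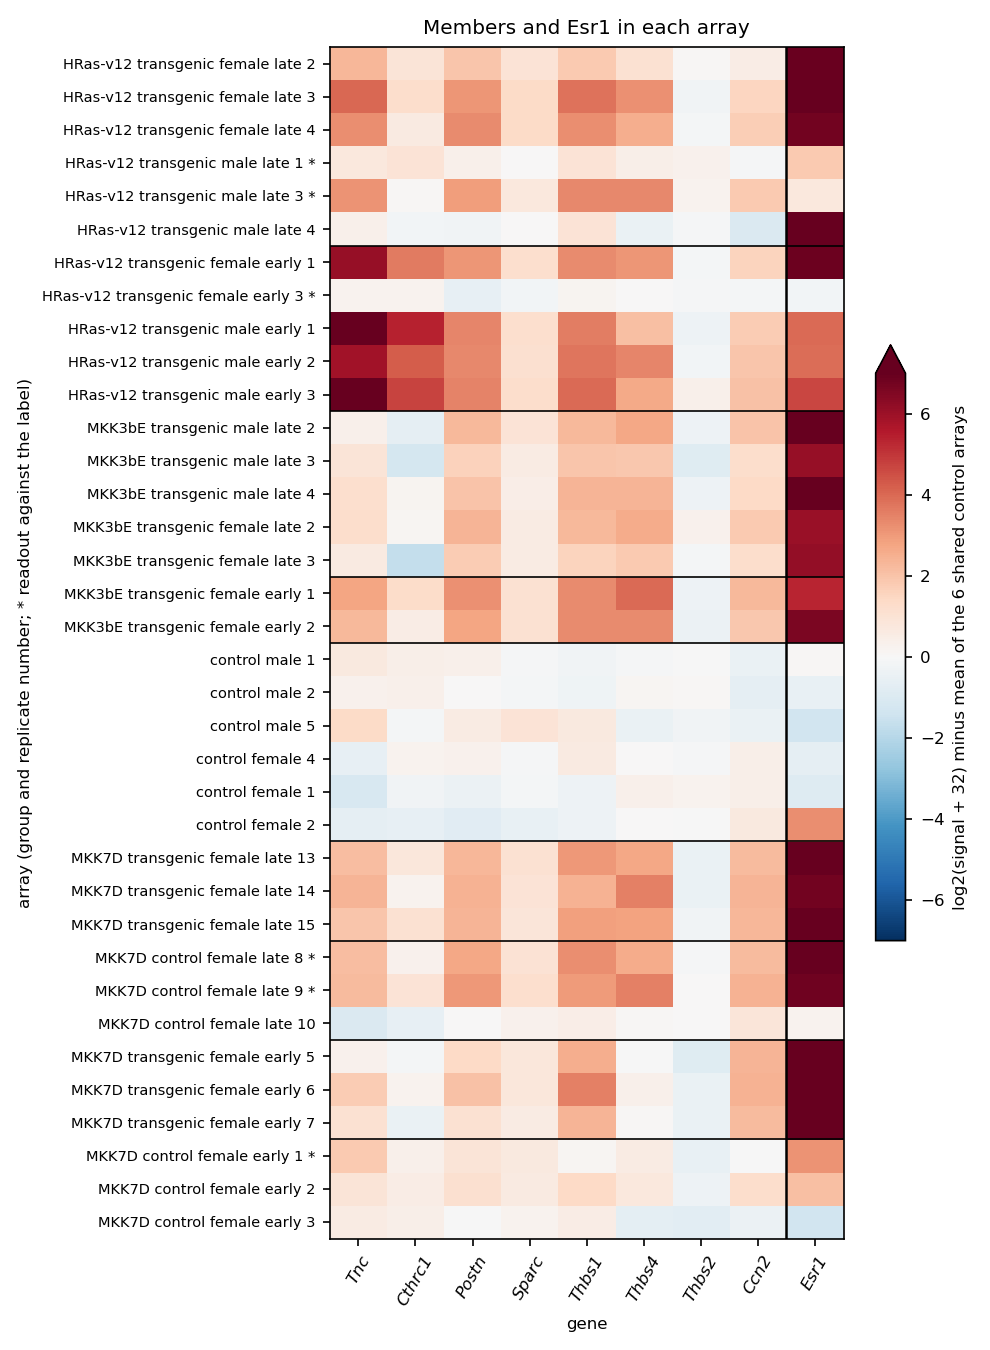
Each gene and Esr1 in each array as log2(signal + 32) minus the mean of the 6 shared controls, with the scale ending at 7 and higher values drawn in its last colour. Rows are arrays by group, a star marks an array in doubt, and black lines part the groups. In Esr1, Tnc, Thbs1, Thbs4, Postn and Ccn2, late MKK7D controls 8 and 9 lie nearer to the late MKK7D transgenic arrays than late control 10 does. The early HRas-v12 female replicate 3 lies near the shared controls.

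Member levels did not always follow the Esr1 signal. The late HRas-v12 male replicate 4 had an Esr1 signal of 155949, the highest of the series, with Postn at 8600, Ccn2 at 9896 and Thbs4 at 1406, within or below the control range. The late HRas-v12 male replicate 3 had an Esr1 signal of 1327 with Postn at 75840, Ccn2 at 71097 and Thbs4 at 20118. The late HRas-v12 changes differed between males and females in no gene of the 8 (0 of all genes were called, limma, with 988 at an unadjusted p under 0.05). Without the arrays in doubt the late males are male replicate 4 alone, assumed to vary like the other groups, and Tnc (-4.39), Postn (-3.63) and Sparc (-1.66) were then called lower in the male change than in the female one (adjusted p = 0.00221, 0.00167 and 0.0086), so these values describe 1 male heart, where 2.64% of all genes were called lower. Of the early HRas-v12 changes none of the 8 differed between the sexes at the threshold, where 0.293% of all genes were called higher, and 0.808% fell (2376 genes at an unadjusted p under 0.05). Without the early female replicate 1, which leaves the array in doubt as the female group, 5 were called higher in males, where 5.16% of all genes were called higher, and 5.87% fell. The late MKK3bE changes differed between males and females in none of the 8, where 0.00792% of all genes were called (587 at an unadjusted p under 0.05).

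HRas-v12 and MKK3bE hearts were also set against each other within sex. Late, over both sexes, none of the 8 genes was called, where 1.92% of all genes were called higher, and 2.04% fell (limma, with 2245 genes at an unadjusted p under 0.05). Without the arrays in doubt, which leaves male replicate 4 (Thbs4 1406, Ccn2 9896) as the 1 late HRas-v12 male, assumed to vary like the other groups, Thbs4 was 2.58-fold lower (adjusted p = 0.0303) and Ccn2 2.61-fold lower (adjusted p = 0.00257) in late HRas-v12 than in late MKK3bE hearts, where 3.26% of all genes were called lower. Early, in females, none of the 8 was called, where 0.451% of all genes were called higher, and 1.35% fell (1774 genes at an unadjusted p under 0.05). With the 6 arrays in doubt left out, 1 early HRas-v12 female remains, assumed to vary like the other groups, and Tnc was 12-fold higher (adjusted p = 0.00161) and Cthrc1 6.65-fold higher (adjusted p = 0.0104) in the early HRas-v12 female than in early MKK3bE females, where 1.79% of all genes were called higher, while Postn, Thbs1, Thbs4, Sparc, Ccn2 and Thbs2 changed by -0.57 to 0.21. With only the early female replicate 3 left out, Cthrc1 was called (2.73, adjusted p = 0.0253) and Tnc was not (3.58, adjusted p = 0.0609). Late against early, none of the 8 was called in MKK3bE females, where 0.00792% of all genes were called, or in the MKK7D change, where 0.0158% were (limma, with 766 and 673 genes at an unadjusted p under 0.05).

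In some small groups the arrays parted completely for members that no test called, as they did for many other genes. Late MKK3bE females lay below early MKK3bE females in every array for the 7 genes other than Thbs2, which held for 18.3% of all genes, and above them for Thbs2, which held for 22.8%. Late MKK7D arrays all lay above early MKK7D arrays for Tnc, Thbs4, Postn and Sparc, which held for 9.6% of all genes, and for no member below, which held for 8.84%. Both early HRas-v12 females lay below both early MKK3bE females for Thbs1, Thbs4 and Ccn2, which held for 18.5% of all genes, and above them for Thbs2, which held for 20.9%. One of these females is the array in doubt, and the other had Thbs1 at 8412 against 8419 and 8500 in early MKK3bE females. No member parted completely between late and early HRas-v12 hearts, in which 1.4% of all genes lay higher and 0.895% lower in every late array, or between late HRas-v12 and late MKK3bE hearts, in which 1.74% lay higher and 1.63% lower. Without the arrays in doubt, Tnc and Cthrc1 parted completely between late and early HRas-v12 hearts, with 429 to 5782 late and 21079 to 65879 early for Tnc and 421 to 1191 late and 6383 to 21991 early for Cthrc1. Then 8.93% of all genes lay lower and 11.8% higher in every late array.

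The MKK7D controls did not match the shared control females. Sparc was higher in the MKK7D controls (36160 to 64973 late and 34598 to 46946 early) than in shared control females (20282 to 27416), by 0.93 ± 0.24 (adjusted p = 0.0178), the 1 member called, where 2.94% of all genes were called higher, and 4.61% fell. Without the 6 arrays in doubt Sparc had an adjusted p of 0.0738 and no member was called. With any of the 3 shared control females left out the call also ended (adjusted p = 0.0522 to 0.0751). Of 9 cardiac muscle markers 4 were called lower in the MKK7D controls (median -0.46 on the log2 scale), of 12 fibroblast markers 1 higher (Col3a1, 1.24, adjusted p = 0.0295) and of 4 platelet markers 1 lower, and their part in the Sparc difference was not tested.

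The values of the 36 arrays share the groups, any scaling of each array and the arrays in doubt. Across these arrays the genes fell into different likenesses by Pearson's r of log2(signal + 32). Postn correlated with Thbs1 at 0.94, with Sparc at 0.91 and with Thbs4 at 0.89, and Tnc with Cthrc1 at 0.88. Ccn2 correlated with Thbs1 at 0.84 and with Cthrc1 at 0.24, and Thbs2 correlated with the other 7 genes at -0.23 to 0.16. Likeness was then ranked among the genes tested, leaving out the members and genes with clone or model names. The pattern of Tnc was most like those of Timp1 (0.95), Tmem183a (0.92) and Anln (0.92). That of Cthrc1 was most like those of Ssr2 (0.89), Golm1 (0.87) and H2az1 (0.86). Postn was most like Col5a2, Col1a2 and Loxl1 (0.96 each), Sparc like Col6a1, Fstl1 and Col3a1 (0.92 each), and Thbs1 like Vcan (0.95), Loxl1 (0.94) and Ptgfrn (0.94). Thbs4 was most like Cilp (0.89), Dlg5 (0.89) and Gask1b (0.88), Ccn2 like Tgfb2 (0.94), Fat1 (0.91) and Myc (0.90), and Thbs2 like Xiap (0.75), Abca1 (0.67) and Mbip (0.61).

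Of 22 further matricellular and related matrix genes listed, 19 were tested. In late HRas-v12 hearts 3 were called higher and 0 lower, and in early HRas-v12 hearts 4 higher and 6 lower, where 4.86% and 4.66% of all genes were called late and 15.1% and 18.7% early. Fstl1, a secreted follistatin-like glycoprotein, rose 2-fold late and 3.1-fold early, and Thbs3, another thrombospondin, and Tgfbi, a TGF-beta induced integrin ligand, rose by 0.91 and 1.02 late. The early falls included Tnxb, the tenascin of compliant connective tissue (-1.51, adjusted p = 3.01e-05), Fbln1, an elastic fibre and basement membrane protein (-1.09, adjusted p = 0.000157), and Vtn, the plasma protein vitronectin (-1.17, adjusted p = 0.000532). Late against early, Fbln1 (2.82-fold), Tnxb (1.32 on the log2 scale), Smoc2 (0.96), Sparcl1 (0.64) and Dpt (0.44) were higher, 5 of the 19 with 0 lower, where 6.91% of all genes were called higher.

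In late MKK3bE hearts 9 of the 19 further genes were called higher and 0 lower, and in early MKK3bE hearts 2 higher and 0 lower. Of all genes, 5.06% were called higher and 5.39% lower late, and 3.48% and 2.78% early. Late, Comp, the pentameric thrombospondin of cartilage, rose by 2.22 (adjusted p = 0.00982), Ccn5, a CCN protein without the C-terminal domain, by 1.87 (adjusted p = 0.00392), Thbs3 by 1.05 (adjusted p = 0.00964) and Fbln1 by 0.84 (adjusted p = 0.00526). Early, Fstl1 rose by 1.89 (adjusted p = 0.025) and Ccn1, the immediate early CCN protein, by 1.23 (adjusted p = 0.0401). In early MKK7D hearts 0 of the 19 were called in either direction, where 0.0871% of all genes were called higher, and 0.0475% fell. The median change of the 19 genes was 0.72 in late MKK3bE hearts and -0.12 in early HRas-v12 hearts, against -0.01 and -0.04 over all genes.

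Receptors and cofactors of these proteins were counted from a list of 18, of which 17 were tested. In late HRas-v12 hearts 4 were called higher and 0 lower, led by the integrin chain Itgb1 (0.62, adjusted p = 0.0138) and the hyaluronan receptor Cd44 (1.33, adjusted p = 0.0319). In early HRas-v12 hearts 7 were called higher and 2 lower, beside 15.1% and 18.7% of all genes early and 4.86% and 4.66% late. Sdc4, a syndecan, rose by 2.25 (adjusted p = 0.000243), Itgb1 by 0.74, Itga5 by 1.39 and Cd44 by 1.74. Late against early HRas-v12, Sdc4 changed by -2.31 (adjusted p = 0.000763), and changed by -0.35 in late and -0.72 in early MKK3bE hearts, where it did not pass the test (adjusted p = 0.63 and 0.512). In late MKK3bE hearts 4 were called higher, Lrp1 (1.08), Itga5 (1.23), Itgb5 (0.63) and Tlr4 (0.88), and in early MKK3bE hearts 3, Itga5 (1.71), Cd44 (2.04) and Itga9 (1.08), with 0 lower in both. Of all genes, 5.06% were called higher and 5.39% lower in late and 3.48% and 2.78% in early MKK3bE hearts.

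Of 10 genes for TGF-beta ligands, receptors and the proteins that process or hold them, all were tested. In late HRas-v12 hearts 2 were called higher, Tgfb1 (0.61) and Tgfb3 (0.91), and in early HRas-v12 hearts 7, among them Ltbp2, a latent TGF-beta binding protein of microfibrils (2.50, adjusted p = 0.0011), Adamts1, a matrix protease (1.11, adjusted p = 0.0013), and the ligands Tgfb1 (0.80) and Tgfb2 (1.84), with 0 lower in both. In late MKK3bE hearts 4 were called higher, among them Ltbp2 (2.35), Tgfb3 (1.25) and Tgfb2 (1.82), and 1 lower, Ltbp1 (-0.57). In early MKK3bE hearts 2 were called higher, Tgfb3 (1.67) and Tgfb2 (2.57), and 1 lower, Ltbp1 (-0.88). In early MKK7D hearts 0 of the 10 were called, where 0.0871% of all genes were called higher, and 0.0475% fell. Of all genes, 4.86% were called higher and 4.66% lower in late and 15.1% and 18.7% in early HRas-v12 hearts. These shares were 5.06% and 5.39% in late and 3.48% and 2.78% in early MKK3bE hearts.

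Markers of cell types in the tissue moved with the groups, and their part in the results above was not tested. Of 12 fibroblast markers 4 were called higher in late HRas-v12 hearts, and 6 higher and 1 lower in early HRas-v12 hearts, with 4 higher in late and 4 in early MKK3bE hearts. For these and the next lists, the shares of all genes called were 4.86% higher and 4.66% lower in late and 15.1% and 18.7% in early HRas-v12 hearts. They were 5.06% and 5.39% in late and 3.48% and 2.78% in early MKK3bE hearts. The fibroblast markers' summed signal was 301181 to 688864 in late and 332979 to 595171 in early HRas-v12 hearts, 403614 to 550058 in late and 547715 to 616762 in early MKK3bE hearts and 332768 to 425722 in the shared controls. Of 11 macrophage markers 2 were called higher and 1 lower in late HRas-v12 hearts, 8 higher in early HRas-v12 hearts and 0 in MKK3bE hearts, with sums of 53786 to 294112 late and 60744 to 234204 early in HRas-v12 hearts and 64740 to 95962 in the shared controls. Of 9 cardiac muscle markers 6 were called lower in late and all 9 in early HRas-v12 hearts, and of 8 endothelial markers 1 was called lower in late and 7 in early HRas-v12 hearts, with 0 of either list in MKK3bE hearts.

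The other marker lists were small. Of 7 smooth muscle and pericyte markers 1 was called higher and 1 lower in late, and 3 higher and 1 lower in early HRas-v12 hearts, with 1 lower in late and 0 in early MKK3bE hearts. Of 4 platelet markers tested, 1 was called higher in early HRas-v12 hearts (Pf4, 0.51, adjusted p = 0.0433) and 0 in late HRas-v12 hearts and in MKK3bE hearts. Of 4 epicardium markers, the retinoic acid enzyme Aldh1a2 was higher in early HRas-v12 hearts (2.95, adjusted p = 0.000282) and the transcription factor Wt1 lower (-0.66, adjusted p = 0.0193), and Wt1 was also lower in late HRas-v12 hearts (-0.68, adjusted p = 0.0354). Of 3 tendon and cartilage markers tested, Fmod (1.49) and Scx (0.84) were called higher in late MKK3bE hearts and Fmod (1.51) in late HRas-v12 hearts. No marker of any list was at a signal of 0 in any array, and in the early HRas-v12 female replicate 3 the fibroblast sum of 332979 lay within the control range and the macrophage sum of 60744 just below it.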

How the data were processed

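The deposited values are intensity signals, 1 per probe set, made by the authors with MAS5, per the submitters' processing notes, which as given name no version. With 2% of the probe sets trimmed from either end, the first array had a mean of 2500, the mark of a scaling step. This mean was not computed for the other arrays, and array medians were 593.5 to 798.6. No depth or detection call was used, and the number of arrays limits the precision. The labels do not say that replicates are separate animals, so p-values measure the spread between arrays, which may be technical.

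Values were taken as log2(signal + 32), without further scaling. Of 45101 probe sets, 34958 had 1 gene symbol, 932 several and 9211 none, and only the first kind named genes. Symbols were updated for 34754 of them through RefSeq gene numbers. Thbs1 also has a probe set shared with another gene, which was not used. The upper 60% of probe sets by mean (a signal of about 414.3 or more) were kept, and the brightest of each gene gave 12626 genes. A model of 13 group means over all 36 arrays was fitted with limma 3.58.1 (R 4.3.3), using eBayes with its trend option. Changes over both sexes are the mean of the male and the female difference. A gene was called at a Benjamini-Hochberg adjusted p under 0.05 over all genes tested, and folds understate changes of dim genes. All adjusted p-values in the text are limma's. There were 15 comparisons. The fit was tested on simulated data.

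Members and gene lists were chosen with earlier results of these data known, so counts over a list are descriptions. Genes that are no members are named as up to 4 per list with the smallest adjusted p in a comparison, and others named (Sdc4 in MKK3bE hearts, Aldh1a2, Wt1, Pf4, Fmod, Scx, Smoc2, Sparcl1, Dpt and Col3a1) were chosen after their values were seen. Likeness named the 3 genes with the highest Pearson r, members and genes with clone or model names left out. The alternatives changed the pseudocount, the filter, the scaling, the probe set, the arrays fitted, the trend and array weights, added a replicate block or left out arrays. 3 were added after seeing the data: leaving out the 6 arrays in doubt, early controls for late MKK7D hearts, and late against early MKK7D arrays without controls. Same-numbered arrays deviated together weakly or oppositely (r from -0.55 to 0.33 over 57 pairs, 8 above 0.1). Deviations from the mean of a small group oppose each other, so this check cannot decide whether the numbers pair the arrays.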

Additional observations from a re-analysis of the deposited data

Results flagged for a closer look

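Values of log2(signal + 32) in groups of 5 or 6 arrays, both sexes together, were examined for 1 array far from the rest. The measure was the gap to its nearest neighbour as a share of the whole range, in 32 sets of 1 gene in 1 group. The early HRas-v12 female replicate 3 stood low, with gap shares of 0.774 for Tnc, 0.825 for Thbs1, 0.903 for Postn, 0.951 for Sparc and 0.778 for Ccn2. This is the array whose Esr1 signal of 688 lay within the control range. The late MKK3bE male replicate 2 stood high for Sparc (0.798), and so did the shared control male replicate 5 (0.698). Chance would set about 1 in 20 such sets apart if each stood alone, and 7 of 32 were set apart here. The sets of different genes share their arrays, so these shares cannot be compared.

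Tnc and Cthrc1 differed between the 2 times of HRas-v12 hearts by the test of the difference itself, with log2 changes of -2.72 and -2.76, late minus early. The late and early changes share their control arrays, which cancel in this difference.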

How the results depend on the processing

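No member changed direction while called: 22 called changes kept their sign in 451 of 451 refits, and of 2345 refits of 120 member changes 60 lost a call and 67 gained one. The cause was not tested, except that fitting only the groups compared and leaving arrays out use fewer arrays.

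The count of members called moved as follows. Fitting only the groups compared gave 0 in place of 4 for late HRas-v12 against controls, 0 in place of 2 for late against early HRas-v12, and 2 in place of 0 for early MKK7D. Over all genes these fits called 0 in place of 1202, 49 in place of 1463 and 372 in place of 17. Array weights gave 2 members in place of 0 for early MKK7D, 2 for late against early MKK7D and 4 for the late HRas-v12 change of males against females. They gave 2 for late HRas-v12 against late MKK3bE and 4 in place of 1 for MKK7D controls against shared control females. In the same order, the genes called over all genes also rose, to 747 in place of 17, 375 in place of 2, 1214 in place of 0, 2167 in place of 499 and 2450 in place of 953. The upper 40% of probe sets, which leaves out Cthrc1, gave 1 member in place of 2 for late against early HRas-v12. The replicate number was also fitted as a block, although the numbers are not known to pair the arrays. Over all genes the block gave 0 in place of 1202 calls for late HRas-v12 and 1856 in place of 4267 for early HRas-v12. For late and early MKK3bE it gave 195 in place of 1319 and 178 in place of 790, and for late against early HRas-v12 209 in place of 1463. The count of members was then 0 in place of 4 for late HRas-v12 and for late and early MKK3bE. It was 1 in place of 2 for late against early HRas-v12 and 5 in place of 7 for early HRas-v12. Without the 6 arrays in doubt it was 2 for early and 4 for late MKK7D in place of 0, 7 in place of 2 for late against early HRas-v12, 3 in place of 0 for late HRas-v12 between the sexes, 2 in place of 0 for HRas-v12 against MKK3bE both late and early, and 0 in place of 1 for MKK7D controls against shared control females. Late MKK7D against early controls gave 1.

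Leaving out 1 array at a time gave 1 to 6 members for late and 3 to 7 for early HRas-v12, 0 to 5 for late and 0 to 4 for early MKK3bE, 0 to 0 for late and 0 to 1 for early MKK7D, and 1 to 3 for late against early HRas-v12. It gave 0 to 5 for early HRas-v12 between the sexes, 0 to 1 for late and 0 to 2 for early HRas-v12 against MKK3bE, 0 to 4 for MKK7D controls against shared control females, and 0 to 0 for the other comparisons. The late HRas-v12 calls of Thbs4 (2.07, adjusted p = 0.0118) and Ccn2 (1.07, adjusted p = 0.0256) were gained without its male replicate 4, and that of Tnc also ended without control male replicate 1 or 2, control female replicate 1 or female replicate 4 (adjusted p = 0.0553 to 0.0637), that of Sparc without control male replicate 1 or 2 (0.0551 and 0.0515) and that of Postn without control female replicate 1 or female replicate 4 (0.0531 and 0.0561).

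Counts over all genes, which set the background, ran over the other alternatives from 0 to 2012 for late HRas-v12 (1202 in the text's fit), 1856 to 5335 for early HRas-v12 (4267), 195 to 2877 for late MKK3bE (1319), 178 to 2054 for early MKK3bE (790), 0 to 428 for late MKK7D (0), 13 to 747 for early MKK7D (17) and 49 to 3291 for late against early HRas-v12 (1463). For MKK7D controls they ran from 283 to 2450 (953), for HRas-v12 against MKK3bE from 181 to 2167 late (499) and 1 to 554 early (228), and for HRas-v12 between the sexes from 0 to 1214 late (0) and 0 to 272 early (139). Late against early they ran from 1 to 51 in MKK3bE (1) and 2 to 375 in MKK7D (2), and between the sexes of late MKK3bE from 0 to 2 (1).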
